A study of Mus musculus with 28 samples.

Results

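The genes described here are 10 nuclear genes that build, shape and renew mitochondria: Opa1, Mfn1 and Mfn2 for fusion, Dnm1l, Fis1 and Mff for fission, Ppargc1a, Nrf1 and Tfam for biogenesis, and Pink1 for the removal of damaged mitochondria. They were chosen by name among the 22180 genes measured, each through the brightest probe set that the platform annotation gave to that gene alone, and each had 1 such probe set. Their levels were compared in whole lungs of newborn mice that lacked HRas, NRas or both, with and without antenatal N-acetyl cysteine (NAC). HRas and NRas are small GTPases that pass growth signals into the cell, NAC is an antioxidant and a precursor of glutathione, and the title of the series speaks of newborns without both genes dying of respiratory distress.

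All lungs were taken at postnatal day 0, and each of the 28 arrays held RNA of 1 animal. The untreated groups were DKO, which lacked both HRas and NRas (5 arrays), HRas-KO (3), NRas-KO (3) and Control (3). The groups exposed to NAC were DKO+NAC (4 arrays), HRas-KO+NAC (3 arrays), NRas-KO+NAC (3 arrays) and Control+NAC (4 arrays), with 0.5% NAC given to the pregnant females throughout pregnancy, so that pups of 1 dam shared their exposure. Strain, sex and litter are not given in the sources used here. A treatment note common to all samples names fewer NAC samples than the sample labels do, and for HRas-KO+NAC only the source labels, not the titles, state NAC. The sample labels were followed.

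Mitochondria fuse and divide continually. Opa1 is the dynamin-like GTPase that fuses inner membranes and keeps cristae tight, and the mitofusins Mfn1 and Mfn2 are the GTPases that tether and fuse outer membranes. Dnm1l (the DRP1 protein) is the GTPase that constricts and divides mitochondria, and Mff and Fis1 are outer membrane proteins, of which Mff is a main receptor that brings Dnm1l to the surface. Ppargc1a (PGC-1α) is the coactivator that drives biogenesis, partly through the transcription factor Nrf1 (nuclear respiratory factor, not the stress factor Nfe2l2). Tfam packages mitochondrial DNA and is a factor for its transcription. Pink1 is the kinase that marks damaged mitochondria for mitophagy. At birth the lung passes from a fluid-filled, oxygen-poor state to air breathing.

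The 250 bases upstream of the transcription start are shown for 4 of the genes, since the values below turn on them: Mff and Opa1, higher in DKO than in either single knockout, Dnm1l, higher in DKO than in NRas-KO, and Ppargc1a, which varied most between animals. Sequences are those of RefSeq on GRCm38.p6, read 5′ to 3′ along the gene's strand and ending at the base before the outermost start listed for the gene. For Opa1, Dnm1l and Ppargc1a that start lies inside the span of the gene record. Capitals mark a match to 1 of the motifs searched on both strands.
Mff, chr1:82724640-82724889, plus strand: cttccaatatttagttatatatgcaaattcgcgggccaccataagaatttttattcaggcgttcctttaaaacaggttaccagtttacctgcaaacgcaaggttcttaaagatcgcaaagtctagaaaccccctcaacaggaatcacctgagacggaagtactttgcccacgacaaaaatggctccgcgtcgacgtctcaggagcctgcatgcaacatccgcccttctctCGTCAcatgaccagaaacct
Opa1, chr16:29579084-29579333, plus strand: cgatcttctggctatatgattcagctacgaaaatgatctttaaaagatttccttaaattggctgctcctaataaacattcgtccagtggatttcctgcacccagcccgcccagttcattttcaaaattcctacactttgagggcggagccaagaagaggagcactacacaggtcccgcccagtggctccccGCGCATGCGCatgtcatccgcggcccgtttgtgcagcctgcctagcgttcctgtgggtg
Dnm1l, chr16:16359032-16359281, minus strand: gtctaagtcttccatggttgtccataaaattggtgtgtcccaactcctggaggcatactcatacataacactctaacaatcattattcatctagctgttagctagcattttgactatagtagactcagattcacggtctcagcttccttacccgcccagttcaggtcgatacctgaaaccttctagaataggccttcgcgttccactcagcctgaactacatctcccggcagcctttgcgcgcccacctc
Ppargc1a, chr5:51567726-51567975, minus strand: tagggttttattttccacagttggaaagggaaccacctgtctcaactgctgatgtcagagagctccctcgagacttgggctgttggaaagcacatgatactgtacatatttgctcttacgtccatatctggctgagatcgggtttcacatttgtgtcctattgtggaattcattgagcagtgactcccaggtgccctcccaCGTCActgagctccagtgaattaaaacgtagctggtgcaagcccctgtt
In Mff the capitals are the cAMP response element core TGACG on the reverse strand, 20 to 16 bases before the start, and in Ppargc1a they are the same core, 49 to 45 bases before the start. In Opa1 they are the NRF1 motif, which is GCGCA and GCGC around 1 base of any kind, 59 to 50 bases before the start. The Dnm1l window held none of the motifs searched.

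All 10 genes had a promoter in the RefSeq table, where 16 start sites were listed for them, and the outermost listed start of each was read. The NRF1 motif lay in the windows of Opa1 and Pink1, 2 of 10 genes, and in 3.74% of all 32851 windows of the same length. The ETS core CCGGAAG, the sequence that GABP recognises, lay in Mfn1, Fis1 and Tfam, against 6.91% of all windows. The core TGACG lay in Mfn1, Mfn2, Mff and Ppargc1a, against 17.8% of all windows, and the full element TGACGTCA, which contains it, lay in none of the 10 and in 1.55% of all windows. A match of letters is a description of the window and does not show binding.

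The values are the deposited log2 values, so a difference of 1 is a factor of 2 in signal. Array medians lay between 5.25 and 5.41. Lung markers were high on every array: Sftpc, the surfactant protein of alveolar type II cells, lay at 12.99 to 13.23, and Pecam1 of endothelium at 10.81 to 11.03. Nras, a deleted gene, lay at 7.40 to 8.08 on the 15 arrays labelled as lacking it and at 8.07 to 8.47 on the other 13. The value of 8.08 was that of DKO+NAC replicate 4, and the other 14 arrays lay at 7.40 to 7.80. Hras was not analysed here. Sample titles end in an animal code whose start (such as C118 or T453) may mark a litter or a collection, although the labels do not say so. The code starts of the 5 DKO arrays (G185, G186, H797) occurred in no other group, and those of the NAC arrays (T195, T317, T445, T453) on no untreated array. All HRas-KO+NAC arrays had the start T453. In whole-lung RNA, fewer cells of a type and less RNA per cell cannot be told apart.

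**Figure D1:**
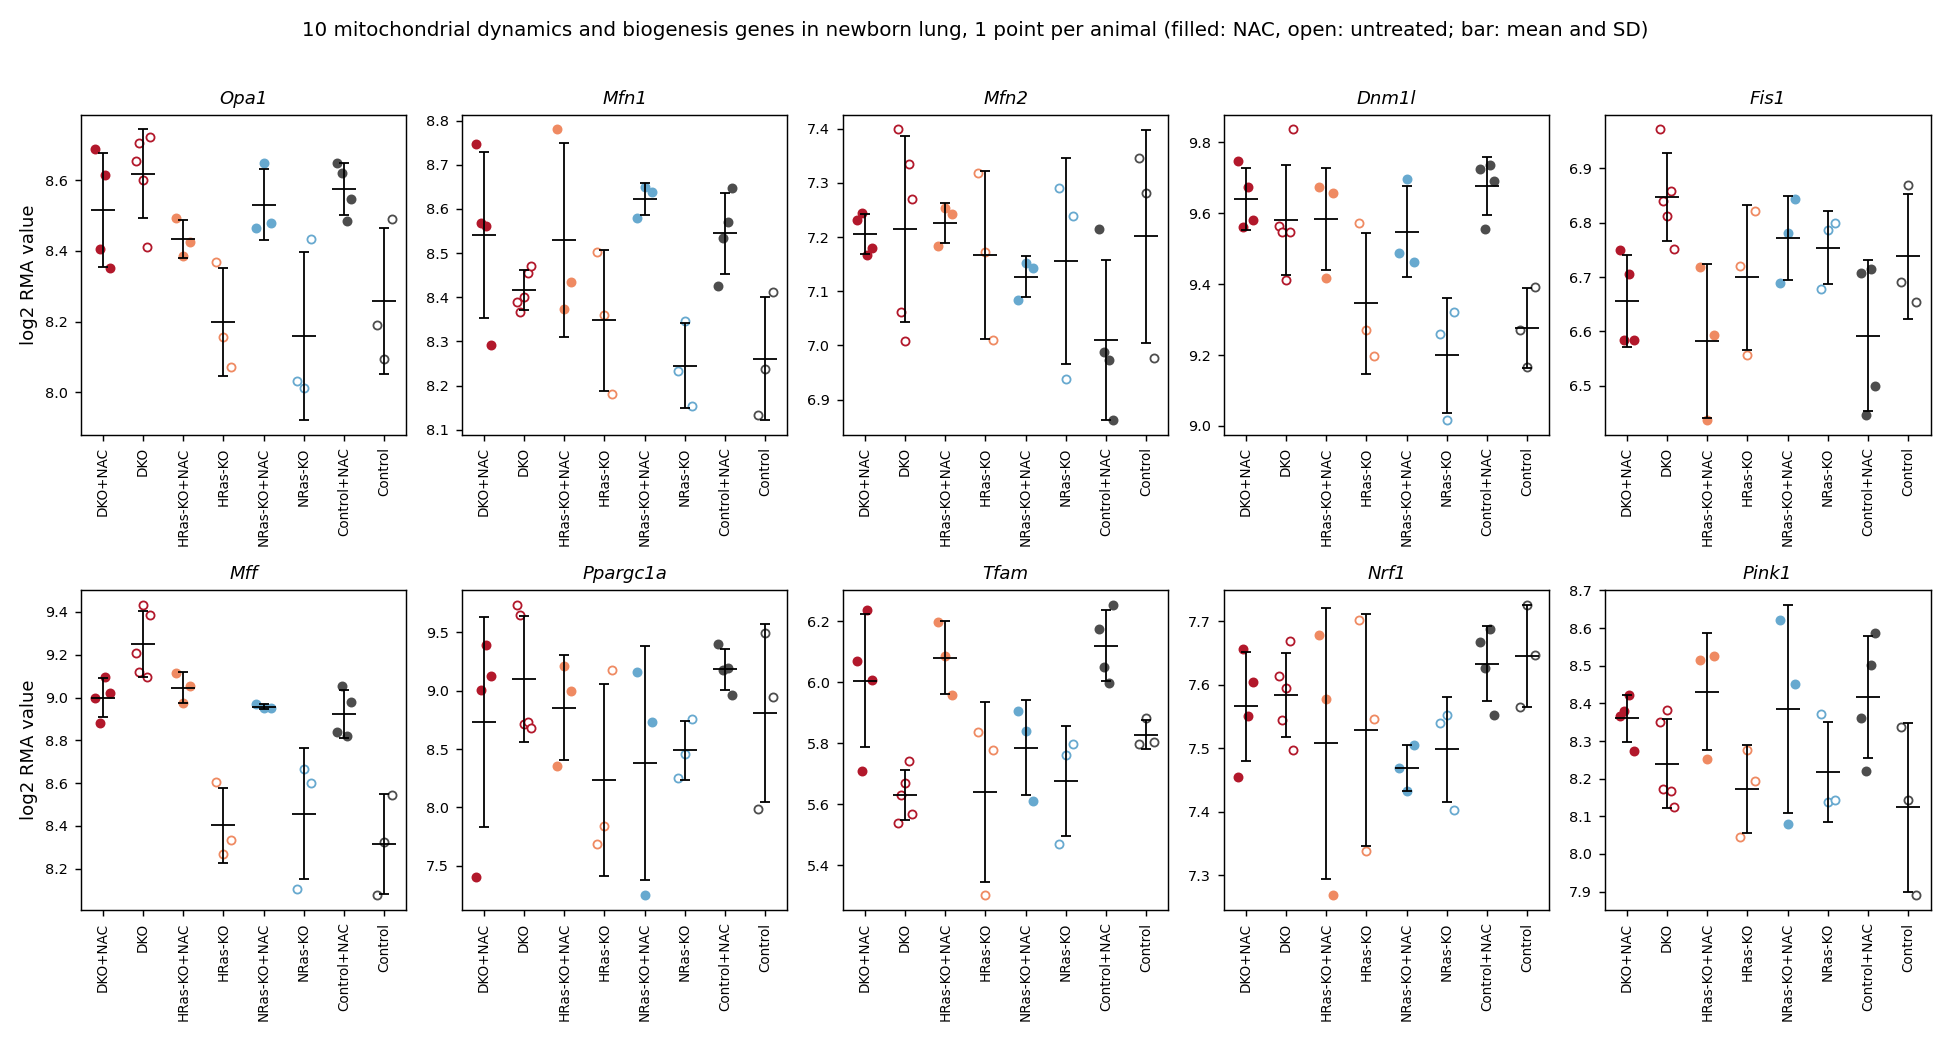
Log2 value (vertical axis, 1 panel per gene) of the 10 genes on each of the 28 arrays, by group along the horizontal axis, with filled points for NAC animals, open points for untreated ones and bars for the group mean and SD. Mff was at 8.82 or above on every DKO and NAC array and at 8.67 or below on the other untreated arrays, while Ppargc1a varied from 7.25 to 9.74.

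In DKO lungs Mff, the fission receptor, was higher than in Control lungs, and of the 10 genes it alone passed the test in that comparison. Across all genes 2.48% were called higher in DKO against Control and 3.83% in either direction, where a gene was called at an adjusted p under 0.05. Of the 10 genes 8 had a positive difference, with a median of 0.14 against 0.02 for all genes, and 3 had an unadjusted p under 0.05, as did 3480 of the 22180 genes.

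Mff (probe set 17214825, GRCm38.p6 chr1:82724890-82752390) read 9.21, 9.12, 9.43, 9.10 and 9.38 in the DKO lungs, against 8.08, 8.32 and 8.54 in the Control lungs. It read 8.60, 8.27 and 8.34 in HRas-KO lungs and 8.11, 8.67 and 8.60 in NRas-KO lungs. The lowest DKO lung thus lay above the highest lung of the 3 other untreated groups, which overlapped one another. The DKO mean of 9.25 ± 0.15 (SD, n = 5) exceeded the Control mean of 8.31 ± 0.23 (n = 3) by 0.93 ± 0.12 (SE), a factor of 1.91, with an adjusted p of 7.98e-05 by limma. DKO lungs exceeded HRas-KO lungs by 0.84 ± 0.12 (adjusted p = 0.000133) and NRas-KO lungs by 0.79 ± 0.12 (adjusted p = 0.000289). The difference from Control stayed between 0.81 and 1.06 and was called in each of 21 alternative fits, which included leaving out each array in turn. With the skeletal muscle, heart muscle and brown fat marker lists as covariates the difference from HRas-KO was 0.72 and no longer called (adjusted p = 0.0547). Levels of the 11 heart muscle markers, relative to each gene's mean over all arrays, were 0.20 to 0.90 in HRas-KO and -0.30 to 0.08 in DKO.

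Other features of these lungs moved with the same groups. A list of 80 small RNA genes had levels, relative to each gene's mean over all arrays, of 0.21 to 0.86 in DKO lungs against -0.45 to 0.04 in Control lungs, and with that list as a covariate the difference in Mff was 1.06 (adjusted p = 0.00176). The 7 lung mesenchyme markers were at -0.05 to 0.10 in DKO and at 0.17 to 0.24 in Control. The 3 erythroid markers measured were at 0.21 to 1.25 in DKO and at -0.36 to 0.31 in Control. The part of the mesenchyme and erythroid markers in the difference was not tested. DKO genotype and animal code start cannot be told apart, since no code start held DKO and another group.

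Opa1, the inner membrane fusion GTPase (probe set 17324583, chr16:29579281-29663127), read 8.66, 8.70, 8.60, 8.41 and 8.72 in DKO lungs, against 8.37, 8.16 and 8.07 in HRas-KO, 8.03, 8.01 and 8.43 in NRas-KO, and 8.19, 8.09 and 8.49 in Control. DKO lungs did not overlap HRas-KO lungs, while 1 NRas-KO lung and 1 Control lung lay within the DKO range. The difference was 0.42 ± 0.11 from HRas-KO (adjusted p = 0.0224) and 0.46 ± 0.11 from NRas-KO (adjusted p = 0.0135). Against Control it was 0.36 ± 0.11 with an adjusted p of 0.0646, which did not pass. Leaving out HRas-KO replicate 2 or 3 or DKO replicate 5 ended the first call (adjusted p = 0.107, 0.129 and 0.052), and the second one ended without NRas-KO replicate 1 or 2 (0.0909 and 0.119). In all the first was lost in 7 of 21 alternative fits and the second in 3. The first was also lost with the muscle and brown fat covariates (limma adjusted p = 0.18) and the small RNA covariate (0.186). It was lost too with only the groups compared (0.0677) and with DKO replicates 1 and 3 left out (0.0612). The second was also lost with only the groups compared (0.0974). Against Control, Opa1 passed without Control replicate 3 (0.0287) or DKO replicate 4 (0.0371).

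Dnm1l, the fission GTPase (probe set 17328484, chr16:16312228-16359038), read 9.56, 9.55, 9.41, 9.55 and 9.84 in DKO lungs, against 9.26, 9.02 and 9.32 in NRas-KO and 9.27, 9.17 and 9.39 in Control. DKO lungs lay above all lungs of both these groups and overlapped HRas-KO (9.57, 9.27 and 9.20). The difference from NRas-KO was 0.38 ± 0.10 (adjusted p = 0.0311), and it no longer passed without NRas-KO replicate 1 or 2 or DKO replicate 1 or 5 (adjusted p = 0.0631, 0.241, 0.0502 and 0.0891). In all it was lost in 10 of 21 alternative fits, among them the replicate block (0.0891), code start as a random block (0.0582), a second quantile normalization (0.0656), median centring (0.0528), the small RNA covariate (0.0548) and the fit of only the groups compared (0.131). Those from Control (0.30 ± 0.10, adjusted p = 0.11) and HRas-KO (0.23 ± 0.10, adjusted p = 0.222) did not pass.

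In all, 2 of 10 genes were called in DKO against HRas-KO, where 3.3% of all genes were called higher, 2.32% lower and 5.63% in either direction. In DKO against NRas-KO 3 of 10 were called, where 3.2% of all genes were called higher, 1.75% lower and 4.95% in either direction. No member was called lower in these comparisons. For the other 7 genes the differences of DKO from Control lay between -0.20 for Tfam and 0.29 for Ppargc1a, and their intervals show what the arrays could resolve. The 95% interval for Mfn2 ran from -0.20 to 0.23, for Nrf1 from -0.25 to 0.12 and for Fis1 from -0.08 to 0.29. For Ppargc1a it ran from -0.59 to 1.17, so that differences of 1 upward, a factor of 2, lie within it. Tfam read 5.54 to 5.74 in DKO lungs, all below its 5.80 to 5.88 in Control lungs. That difference of -0.20 ± 0.12 did not pass (adjusted p = 0.463 by limma).

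No member was called in either single knockout. In HRas-KO and NRas-KO against Control limma called 0 of 10 members and 0 of all 22180 genes, with 190 and 231 genes at an unadjusted p under 0.05 and none of them among the 10. Mff differed from Control by 0.09 ± 0.13 in HRas-KO (95% interval -0.18 to 0.36) and by 0.14 ± 0.13 in NRas-KO (-0.13 to 0.42). Opa1 differed by -0.06 ± 0.12 in HRas-KO and by -0.10 ± 0.12 in NRas-KO.

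**Figure D2:**
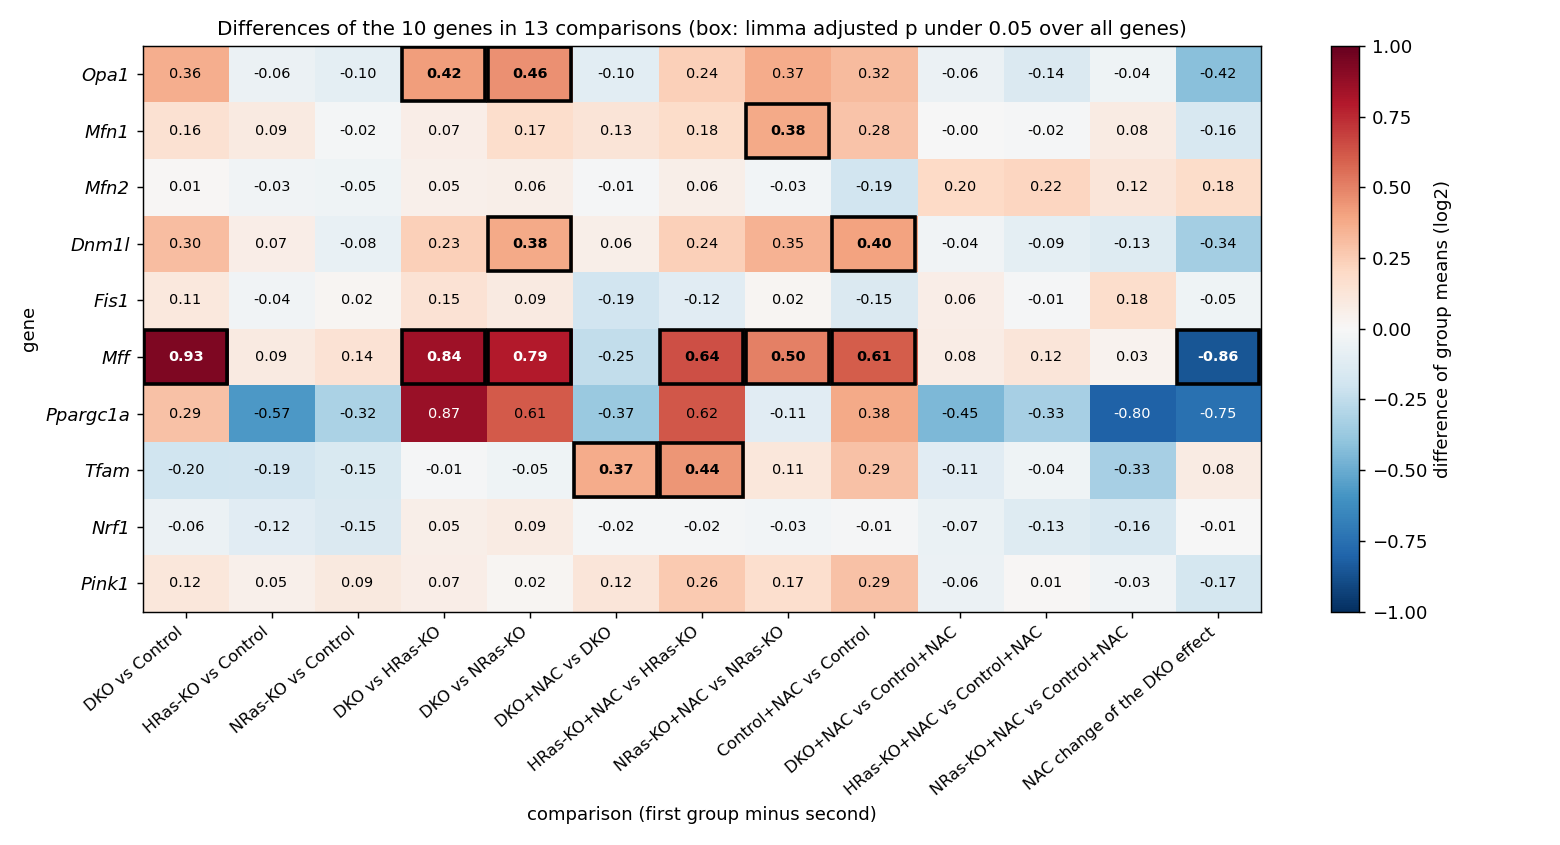
Log2 difference (first group minus second, colour and printed value) of each of the 10 genes (rows) in the 13 comparisons (columns), with a box around differences called by limma. Mff was called in DKO against each untreated genotype (0.93, 0.84 and 0.79) and in the NAC comparisons of HRas-KO (0.64), NRas-KO (0.50) and Control (0.61), while the differences of Ppargc1a, as large as 0.87, were not called.

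With NAC, Mff was higher than without it in HRas-KO, NRas-KO and Control lungs, and it was not called in DKO lungs. Mff read 9.11, 8.97 and 9.05 in HRas-KO+NAC, 8.97, 8.95 and 8.95 in NRas-KO+NAC, and 8.84, 9.06, 8.82 and 8.98 in Control+NAC. Each of these groups lay wholly above its untreated counterpart. The lung mesenchyme markers were lower on every NAC array (-0.27 to -0.01) than on every untreated HRas-KO, NRas-KO and Control array (0.13 to 0.30), and their part in the difference was not tested. The difference was 0.64 ± 0.13 in HRas-KO (adjusted p = 0.00214), 0.50 ± 0.13 in NRas-KO (adjusted p = 0.0223) and 0.61 ± 0.12 in Control (adjusted p = 0.00174). The call in NRas-KO was lost without NRas-KO replicate 1, which read lowest in its group (adjusted p = 0.186), and without NRas-KO+NAC replicate 1 or 2 (0.0624 and 0.0618).

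In DKO+NAC lungs Mff read 8.999, 8.88, 9.10 and 9.02, against 9.10 to 9.43 in DKO lungs, a difference of -0.25 ± 0.11 (adjusted p = 0.148). Replicate 3 lay just inside the DKO range, the other DKO+NAC lungs below it. DKO+NAC and Control+NAC lungs overlapped and differed by 0.08 ± 0.12 (95% interval -0.16 to 0.31, adjusted p = 0.864). The difference between DKO and Control was smaller with NAC than without it, by an interaction term of -0.86 ± 0.17 (adjusted p = 0.0245), where 0.271% of all genes had a called fall and 0.388% a called change in either direction. Mff was the only member of 10 with such a call. It was lost without Control replicate 1 or 2, Control+NAC replicate 4 or DKO+NAC replicate 1 (adjusted p = 0.0925, 0.0675, 0.0507 and 0.0542).

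In order of the group means Mff was highest in DKO (9.25), then HRas-KO+NAC (9.05), DKO+NAC (9.0), NRas-KO+NAC (8.96), Control+NAC (8.92), NRas-KO (8.46), HRas-KO (8.40) and Control (8.31). Among the 7 pairs of neighbours in that order only Control+NAC and NRas-KO did not overlap. The 19 DKO and NAC arrays read 8.82 to 9.43, and the 9 arrays of untreated HRas-KO, NRas-KO and Control lungs 8.08 to 8.67, without overlap. The 7 lung mesenchyme markers split the same arrays, at -0.27 to 0.10 on the 19 and at 0.13 to 0.30 on the 9, and their part in Mff was not tested. Of all 22180 genes 111 (0.5%) were likewise higher and 55 (0.248%) lower in the 19 arrays with no overlap, and Mff was the only one of the 10 members to do so. The split was noticed after the values were seen. The animal codes of those 9 arrays began with C117, C118 or H058, and no other array had such a start, so that genotype, NAC and code start cannot be told apart in it. For each of the other 9 genes every pair of neighbouring groups overlapped.

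Tfam, the mitochondrial DNA packaging and transcription factor (probe set 17241765, chr10:71225468-71238328), was higher with NAC in DKO and in HRas-KO lungs. It read 6.07, 5.71, 6.23 and 6.01 in DKO+NAC against 5.54, 5.63, 5.67, 5.74 and 5.57 in DKO, and 6.20, 6.09 and 5.96 in HRas-KO+NAC against 5.84, 5.302 and 5.78 in HRas-KO. DKO+NAC replicate 2 lay within the DKO range, and the HRas-KO groups did not overlap. The differences were 0.37 ± 0.11 in DKO (adjusted p = 0.0235) and 0.44 ± 0.13 in HRas-KO (adjusted p = 0.0304). All Control+NAC lungs lay above all Control lungs, but the difference of 0.29 ± 0.12 did not pass (adjusted p = 0.125). The mean was 6.12 ± 0.12 in Control+NAC and 5.83 ± 0.05 in Control. In NRas-KO it was 0.11 ± 0.13 (adjusted p = 0.717).

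The Tfam calls rested on few lungs. In DKO the call was lost without DKO replicate 1 or 5 or DKO+NAC replicate 1 or 3 (adjusted p = 0.0572, 0.0502, 0.0661 and 0.107). In HRas-KO it was lost without HRas-KO replicate 2, whose value was the lowest Tfam value of the 28 arrays (adjusted p = 0.247), and without HRas-KO+NAC replicate 1 or 2 (0.133 and 0.0685). Each lung epithelium list value in NAC lungs (-0.18 to -0.03) lay below those of untreated HRas-KO and Control lungs (0.04 to 0.16), and the part of these markers in the NAC differences was not tested.

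Dnm1l was called in Control+NAC against Control, at 9.73, 9.56, 9.74 and 9.69 against 9.27, 9.17 and 9.39, with no overlap and a difference of 0.40 ± 0.11 (adjusted p = 0.0149). It failed without Control replicate 1 (adjusted p = 0.0547) or 2 (0.1). Mfn1, an outer membrane fusion GTPase (probe set 17396710, chr3:32529443-32579225), was called in NRas-KO+NAC against NRas-KO, at 8.58, 8.65 and 8.64 against 8.23, 8.35 and 8.15. The groups did not overlap and the difference was 0.38 ± 0.11 (adjusted p = 0.0454), lost without any 1 of the 6 arrays (0.0651 to 0.157). Opa1 lay 0.37 ± 0.12 higher in NRas-KO+NAC than in NRas-KO (adjusted p = 0.0706) and 0.32 ± 0.12 higher in Control+NAC than in Control (adjusted p = 0.0678), and neither passed.

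In all, limma called 1 of 10 members in DKO+NAC against DKO and 2 of 10 in each of the NAC comparisons of HRas-KO, NRas-KO and Control, all higher. Of all genes 5.74% were called higher, 6.46% lower and 12.2% in either direction in DKO. The shares were 6.73% higher, 5.1% lower and 11.8% in all for HRas-KO, 2.86%, 3.56% and 6.42% for NRas-KO, and 7.86%, 5.68% and 13.5% for Control. The count in DKO is thus near that of all genes, and whether the counts of 2 of 10 exceed these shares was not tested. The medians of the members' differences were -0.01, 0.24, 0.14 and 0.29 in that order, against 0.02 to 0.03 for all genes. No NAC array shared a code start with an untreated array, so NAC and code start cannot be told apart. With NAC in both groups, each knockout against Control+NAC gave 0 of 10 members and 0 of all genes by limma, with 2116 (DKO+NAC), 1408 (HRas-KO+NAC) and 2321 (NRas-KO+NAC) genes at an unadjusted p under 0.05. Of the members only Tfam in NRas-KO+NAC was among these, at -0.33 ± 0.12 (adjusted p = 0.348).

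Mfn2, Fis1, Nrf1, Pink1 and Ppargc1a were called in none of the 13 comparisons. Mfn2 (probe set 17432808, chr4:147873586-147904909) had group means between 7.01 in Control+NAC and 7.23 in HRas-KO+NAC. Fis1 (17443474, chr5:136953275-136966234) lay between 6.58 in HRas-KO+NAC and 6.85 in DKO. Its 4 DKO+NAC lungs, at 6.58 to 6.75, and its 5 DKO lungs, at 6.75 to 6.97, met without overlap, a difference of -0.19 ± 0.08 (adjusted p = 0.138).

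Nrf1 (17456804, chr6:30047985-30153458) had the narrowest range of group means of the 10, from 7.47 in NRas-KO+NAC to 7.65 in Control. Its pooled SD within groups was 0.11, against a median of 0.17 over all genes. Pink1 (17431749, chr4:138313409-138326296) lay at 8.36 to 8.43 in the 4 NAC groups and at 8.12 to 8.24 in the 4 untreated ones, group means whose single arrays overlapped. Its largest NAC difference was 0.29 ± 0.12, in Control lungs (adjusted p = 0.115).

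Ppargc1a (probe set 17448001, chr5:51454249-52115853), the master coactivator of biogenesis, varied far more between animals of a group than the other members did. Its pooled SD within groups was 0.66, larger than that of 99.6% of all genes, and its values ran from 7.25 to 9.74. It read 9.74, 9.64, 8.71, 8.73 and 8.68 in DKO, 7.69, 7.84 and 9.18 in HRas-KO, 8.25, 8.46 and 8.76 in NRas-KO, and 7.98, 9.49 and 8.95 in Control. With NAC it read 7.41, 9.01, 9.39 and 9.12 in DKO+NAC, 8.35, 9.21 and 8.99 in HRas-KO+NAC, 9.16, 7.25 and 8.73 in NRas-KO+NAC, and 9.40, 9.17, 9.19 and 8.97 in Control+NAC. Lungs at 8.25 or below occurred in 5 groups with and without NAC, and no comparison was called. The largest differences between groups were 0.87 ± 0.43 in DKO against HRas-KO (adjusted p = 0.284) and -0.80 ± 0.45 in NRas-KO+NAC against Control+NAC (adjusted p = 0.536).

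Set out by the start of the animal code, the same values fell into bands. The 4 arrays of C117 and C118 lay at 7.69 to 8.25, and the 5 of H058 at 8.46 to 9.49. C118 and H058 each held Control, HRas-KO and NRas-KO lungs, so within each of these 3 genotypes the H058 lungs read higher. The 2 arrays of T195, a DKO+NAC and an NRas-KO+NAC lung, lay at 7.25 and 7.41, below the other 12 NAC arrays at 8.35 to 9.40. The 5 DKO lungs (G185, G186 and H797) lay at 8.68 to 9.74. The bands were noticed after the values were seen and no test was run.

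The mean level of 6 measured proliferation markers, relative to each gene's mean, was -0.45 to -0.13 on the arrays of C117 and C118, -0.15 to 0.31 on those of H058, -0.65 to -0.52 on those of T195 and -0.26 to 0.65 on the other NAC arrays. It was thus lowest on the T195 arrays too, and its part in Ppargc1a was not tested. In brown fat, which expresses Ppargc1a strongly, Ucp1 and Cidea are defining markers. Here they were at 3.95 to 4.48 and 3.96 to 4.64 on all 28 arrays, and the 9-gene brown fat list was at -0.18 to 0.21. Of the other genes in that list, Cox8b (4.19 to 5.07), Plin5 (4.68 to 5.74) and Dio2 (4.23 to 5.71) varied more. Elovl3 and Adipoq did not, and Plin1 and Cidec varied about as much as Cidea. The 12 skeletal muscle markers ran from -0.45 to 1.32 and the 11 heart muscle markers from -0.57 to 0.90. The heart muscle list was at 0.20 to 0.90 on the arrays of C117 and C118 and at 0.05 to 0.20 on those of H058. On those of T195 it was at -0.37 to 0.15 and on the other NAC arrays at -0.57 to 0.61. The fit with the muscle and brown fat lists as covariates covered Ppargc1a in the group comparisons, but its values there are not given here. The part of the brown fat, skeletal muscle and heart muscle lists in the bands of Ppargc1a was not tested.

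**Figure D3:**
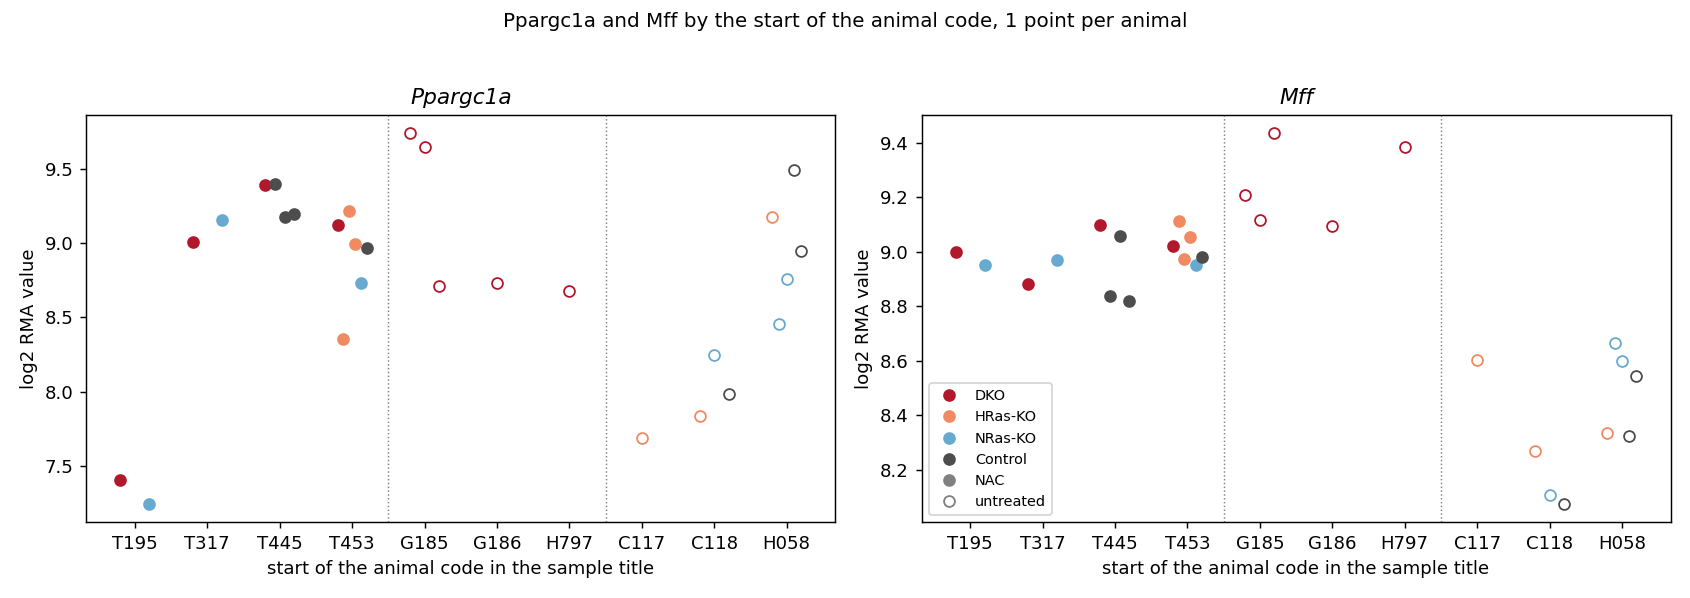
Log2 value (vertical axis) of Ppargc1a and Mff on each array, arranged by the start of the animal code along the horizontal axis, with colours for genotypes and filled points for NAC. Ppargc1a lay at 7.25 to 7.41 in T195 and at 8.46 to 9.49 in H058, and Mff was at or below 8.67 in C117, C118 and H058 and at or above 8.82 elsewhere.

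Ppargc1a and Mff had the widest ranges of group means among the 10, and for these the 3 genes with the most similar profile over the 28 arrays were looked up. For Ppargc1a they were Arhgap28 (Pearson correlation 0.86, Spearman correlation 0.79) and the immediate-early nuclear receptors Nr4a3 (Pearson 0.85, Spearman 0.71) and Nr4a2 (Pearson 0.84, Spearman 0.67). Without the 2 T195 arrays, the farthest from the Ppargc1a median, the Pearson correlation was 0.76, 0.74 and 0.73 in that order. Nr4a3 read 5.68 and 5.73 on those arrays and 7.15 to 8.03 on the other NAC arrays. Points of 1 code start share whatever that code stands for, so they are not independent.

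For Mff they were Fbxo8, an F-box protein, Slc25a46, a mitochondrial outer membrane protein of the carrier family, and Zyg11b, a substrate receptor of a ubiquitin ligase. Since the arrays split into the 19 and the 9 named above, correlations are given within each set: 0.64, 0.73 and 0.62 in the 19 and 0.88, 0.77 and 0.78 in the 9, in the order of the names. Fbxo8 averaged 9.22 ± 0.15 in DKO, against 8.61 ± 0.23 in Control, and 9.06 ± 0.11 in Control+NAC.

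**Figure D4:**
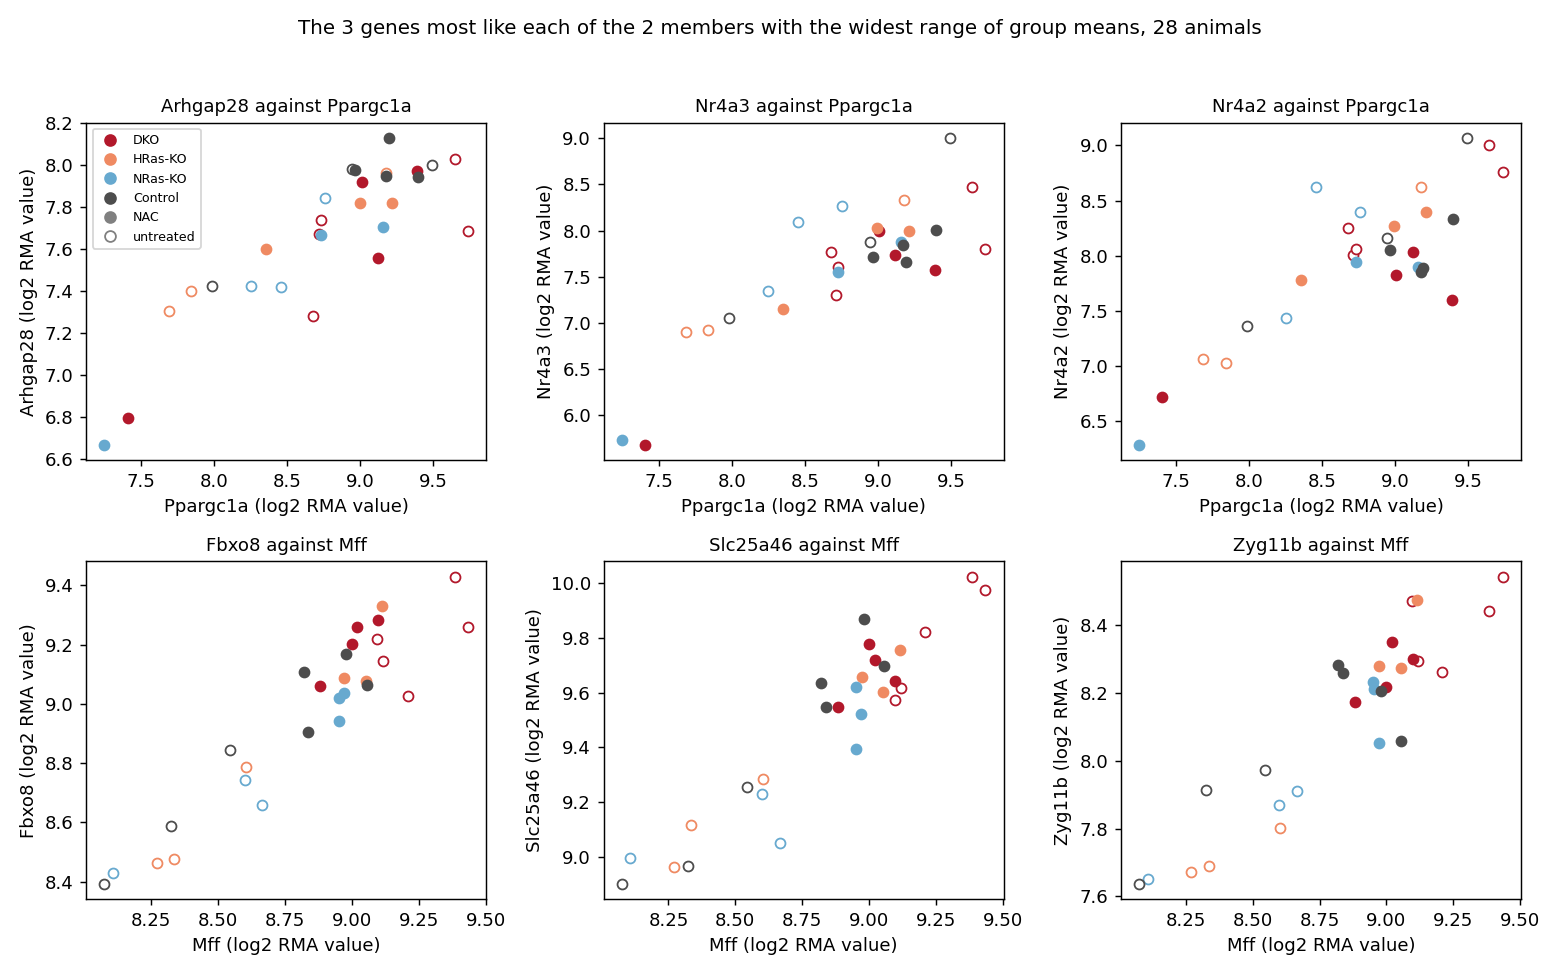
Log2 values of the 3 genes most like Mff and the 3 most like Ppargc1a (vertical axes) against the member itself (horizontal axis), 1 point per array in the colour of its genotype, filled for NAC. The Mff panels show the 2 separate sets of 19 and 9 arrays, and the Ppargc1a panels show the pair of T195 arrays at the low end.

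Among the 10 genes themselves, the closest pairs over the 28 arrays were Opa1 with Dnm1l (r = 0.83), Opa1 with Mff (0.80) and Mfn1 with Dnm1l (0.69), and the most opposed was Fis1 with Tfam (-0.37). Mfn1 and Ppargc1a stood at -0.22. Opa1, Mfn1, Dnm1l and Mff each had lower means in untreated HRas-KO, NRas-KO and Control lungs than in every other group. Their correlations over all arrays thus include differences between groups, and are not given within the sets named above. These values describe these arrays and carry no test.

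The wider pathway was described with 7 lists, written out with results of these data already known, in which 132 of 142 genes were measured. In DKO against Control limma called 8 higher (6.06%) and 1 lower (0.758%), against 2.48% and 1.35% of all genes. Marchf5, a ubiquitin ligase of the outer mitochondrial membrane that acts on fission proteins, was 0.89 ± 0.13 higher (adjusted p = 0.000231), and Slc25a46 was 0.76 ± 0.11 higher (adjusted p = 0.000289). Also called were Rhot1 (0.45 ± 0.10), the GTPase that links mitochondria to motor proteins, Gabpa (0.50 ± 0.11), the DNA-binding subunit of GABP, and Bnip3 (0.70 ± 0.18), a mitophagy receptor.

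The remaining calls were Stoml2 (0.39), a cardiolipin-binding inner membrane protein, Ppara (0.45), a lipid-sensing nuclear receptor, Tomm20 (0.41), an import receptor, and Sdhc (-0.66), a succinate dehydrogenase subunit. Slc25a46 and Marchf5 passed in each of 21 alternative fits, and each of the other 7 failed without at least 1 array. Rhot1 failed without Control replicate 2, Gabpa without Control replicate 1 or 2, and Bnip3 without Control replicate 1 or 3 or DKO replicate 3, while Stoml2, Ppara, Tomm20 and Sdhc each failed in 6 or 7 of the 8 fits that leave out an array. The count of 9 was 3 without Control replicate 1 or 2 and 5 without DKO replicate 4. It was 2 with only the groups compared, 3 with the small RNA covariate and 5 with code start as a random block.

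Against HRas-KO 9 genes of the lists (6.82%) were called higher and 6 (4.55%) lower, where the shares of all genes were 3.3% and 2.32%. Against NRas-KO 6 (4.55%) were called higher and 2 (1.52%) lower, where the shares of all genes were 3.2% and 1.75%. Marchf5 (0.91 and 0.99) and Slc25a46 (0.68 and 0.71) were called in both, as was Gabpa (0.56 and 0.44), with Sdhc lower in both (-0.77 and -0.78). The 15 calls against HRas-KO were 5 without HRas-KO replicate 2 and 7 without replicate 3, and the 8 against NRas-KO were 3 without NRas-KO replicate 1. With the muscle and brown fat covariates the 15 were 1, with the small RNA covariate 4 and with only the groups compared 9, and the 8 were 4 with only the groups compared. In the single knockouts against Control, 0 list genes were called. These DKO comparisons share the DKO arrays.

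**Figure D5:**
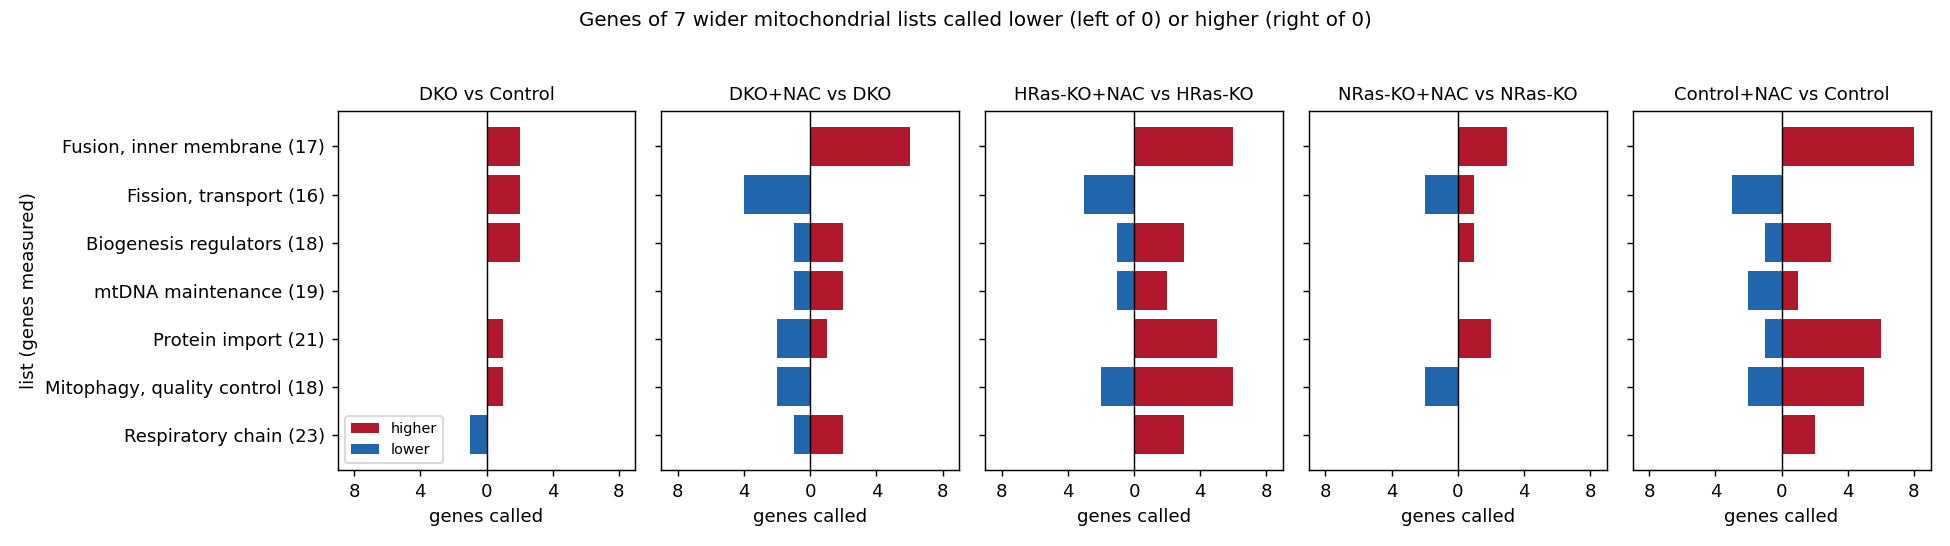
Number of genes (horizontal axis) called higher, to the right of 0, and lower, to the left, in each of the 7 wider lists (rows, with the genes measured), in 1 panel for DKO against Control and 1 for each of the 4 NAC comparisons. In the NAC comparisons of DKO, HRas-KO, NRas-KO and Control the fusion and inner membrane list had 6, 6, 3 and 8 of 17 genes higher and 0 lower. The fission and transport list had 0, 0, 1 and 0 higher and 4, 3, 2 and 3 lower of 16. Of all genes 5.74%, 6.73%, 2.86% and 7.86% were called higher there, and 6.46%, 5.1%, 3.56% and 5.68% lower. In DKO against Control each of these lists had 2 higher and 0 lower, against 2.48% and 1.35% of all genes.

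In the NAC comparisons the lists gave 13 genes higher and 11 lower in DKO, 25 and 7 in HRas-KO, 7 and 4 in NRas-KO and 25 and 9 in Control. As shares these were 9.85%, 18.9%, 5.3% and 18.9% higher, against the 5.74%, 6.73%, 2.86% and 7.86% of all genes given above, and 8.33%, 5.3%, 3.03% and 6.82% lower, against 6.46%, 5.1%, 3.56% and 5.68%. Single arrays moved these totals: the 24 calls in DKO were 14 without DKO+NAC replicate 3, the 32 in HRas-KO were 21 without HRas-KO+NAC replicate 1, and the 34 in Control were 19 without Control replicate 1 and 22 without Control replicate 2. The 11 in NRas-KO were 5 without NRas-KO replicate 1, 3 without NRas-KO replicate 2 and 4 without NRas-KO+NAC replicate 1. With only the groups compared the calls were 11 in DKO and 1 in NRas-KO, and in NRas-KO they were 18 with the dimmest 40% of genes left out and 7 with array weights.

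Among the 17 genes measured for fusion and inner membrane shape, 6, 6, 3 and 8 were called higher with NAC in DKO, HRas-KO, NRas-KO and Control lungs and 0 lower, with list medians of 0.12, 0.27, 0.13 and 0.28. Of all genes 5.74%, 6.73%, 2.86% and 7.86% were called higher in that order, and 6.46%, 5.1%, 3.56% and 5.68% lower. Whether the list counts differ from these shares was not tested. Examples were the outer membrane protein Mtch2 in DKO (0.43 ± 0.10), the inner membrane protease Yme1l1, which cuts Opa1, in HRas-KO (0.64 ± 0.13) and NRas-KO (0.59 ± 0.13), and Stoml2 in Control (0.66 ± 0.12). Apool, a part of the cristae junction complex, was called in DKO (0.41), HRas-KO (0.59) and Control (0.69). Slc25a46 was called in HRas-KO (0.55), NRas-KO (0.42) and Control (0.64). The NRas-KO calls failed without NRas-KO replicate 1 (Yme1l1, Slc25a46), and that of Slc25a46 also without NRas-KO replicate 2 or NRas-KO+NAC replicate 1 or 2. The Apool call in DKO failed without DKO+NAC replicate 3.

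Of the 16 genes for fission and transport 0, 0, 1 and 0 were called higher and 4, 3, 2 and 3 lower. The shares of all genes were 5.74%, 6.73%, 2.86% and 7.86% higher and 6.46%, 5.1%, 3.56% and 5.68% lower. Whether the list counts differ from these shares was not tested. Inf2, a formin that builds actin at division sites, was lower with NAC in all 4 genotypes, with differences of -0.74 ± 0.13, -0.94 ± 0.15, -0.64 ± 0.15 and -1.02 ± 0.14 for DKO, HRas-KO, NRas-KO and Control (adjusted p = 0.00039, 0.000306, 0.0121 and 6.35e-05). The call in NRas-KO failed without NRas-KO replicate 1 or NRas-KO+NAC replicate 1. Marchf5 was lower in DKO+NAC than in DKO (8.94 ± 0.10 against 9.76 ± 0.21), a difference of -0.82 ± 0.12 (adjusted p = 5.77e-05), and was not called in the other genotypes. Rhot2, a relative of Rhot1, was lower in HRas-KO with a difference of -0.77 ± 0.12 (adjusted p = 0.000172).

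Ulk1, a kinase that starts autophagy and is on the mitophagy list, was lower with NAC in all 4 genotypes as well, with differences of -0.68 ± 0.11, -0.75 ± 0.14, -0.81 ± 0.14 and -0.84 ± 0.13 for DKO, HRas-KO, NRas-KO and Control, and kept its call without any 1 array. Fundc1, a mitophagy receptor, was higher in HRas-KO (0.74) and Control (0.65). Among 18 biogenesis regulators, Gabpa was higher in HRas-KO (0.75), NRas-KO (0.41) and Control (0.61), and Sirt1, a deacetylase that acts on Ppargc1a, in DKO (0.31), HRas-KO (0.49) and Control (0.39). The Gabpa call in NRas-KO failed without 5 of the 6 single arrays, all but NRas-KO replicate 3.

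In the mitochondrial DNA list of 19 genes the calls went both ways: Mterf3, of the mitochondrial transcription termination factor family, was higher in Control (0.57), and Polrmt, the mitochondrial RNA polymerase, was lower in HRas-KO (-0.70) and, unless Control replicate 1 was left out, in Control (-0.42). Of 21 import genes 1, 5, 2 and 6 were called higher and 2, 0, 0 and 1 lower, among them Tomm20 in HRas-KO (0.61) and Control (0.69). Of 23 nuclear respiratory chain genes 2, 3, 0 and 2 were higher and 1, 0, 0 and 0 lower, with Sdhc at 0.66 ± 0.17 in DKO+NAC against DKO (adjusted p = 0.0101). Beside the import and respiratory chain counts, the shares of all genes were 5.74%, 6.73%, 2.86% and 7.86% higher. They were 6.46%, 5.1%, 3.56% and 5.68% lower. Whether the list counts differ from these shares was not tested.

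For the interaction of NAC and DKO limma called 0 of the 132 list genes higher and 2 (1.52%) lower. The shares of all genes were 0.117% and 0.271%. The 2 were Marchf5 at -0.96 ± 0.18 (adjusted p = 0.0218) and Slc25a46 at -0.77 ± 0.15 (adjusted p = 0.0277). The Marchf5 call was lost without Control replicate 1. That of Slc25a46 was lost without Control replicate 1 or 2, Control+NAC replicate 4, DKO replicate 5 or DKO+NAC replicate 2. The 2 calls were 0 with only the groups compared, 1 with the replicate block or the small RNA covariate, and 4 with median centring or array weights.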

How the data were processed

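RNA of 28 newborn mouse lungs, 1 animal each, was hybridised to 1-colour arrays. The authors deposited log2 values. The submitters' processing notes name RMA and affy, whose versions, like the genome build and whether all arrays were normalized together, are not given in the sources used here. In all, the table held 41345 rows, without detection p-values. The platform annotation gave 23521 rows 1 gene symbol, 1814 several, and did not list 16010. The brightest row stood for a gene with several rows (1082 genes), which left 22180 genes. Groups came from the sample labels. Group means were fitted with limma 3.58.1 in R 4.3.3 on all 28 arrays (20 residual and 5.95 prior degrees of freedom), and p-values were adjusted by Benjamini-Hochberg over all genes for each of 13 comparisons. The procedure was tested on simulated data for DKO against Control. The simulated arrays were independent, so that test does not cover arrays that share a code start. The number of arrays limits the precision. The limma p-values weigh each difference against the spread between these animals within groups, an estimate partly shared across genes. The main fit treated arrays of 1 code start as independent, and every HRas-KO+NAC array had the code start T453. Spread between code starts is thus not seen within that group.

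The members and lists were chosen with earlier results of these data known. All 10 members were named, called genes of the wider lists up to 3 of smallest p per list and comparison, and the 3 genes most correlated with the 2 members of widest range. Marker list levels are means over genes of each gene's deviation from its mean. Replicate numbers did not pair the samples: deviations of same-numbered arrays had a mean correlation of 0.021 over 37 pairs, 13 of them over 0.1. Arrays of 1 code start had a mean correlation of 0.146 (15 of 28 pairs over 0.1), against -0.035 over 117 pairs of other code starts, and code start as a random block had a correlation of 0.121. None of the 378 pairs of arrays held identical values. Alternatives covered another scaling, filters, row choice, moderation, array weights, blocks, covariates and leaving out each array. The small RNA covariate and leaving out DKO replicates 1 and 3 were chosen after seeing the data.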

Additional observations from a re-analysis of the deposited data

Results flagged for a closer look

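Mff was the only member flagged. Its difference between DKO and Control lungs changed with NAC, with an interaction term of -0.86 ± 0.17 (SE, adjusted p = 0.0245 by limma): it was 0.08 between DKO+NAC and Control+NAC, against 0.93 between DKO and Control. A search for single arrays far from the rest of their group flagged none: 30 combinations of a member and a group of 4 or 5 arrays were tested, with 0 flags, where chance flags about 1 in 20.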

How the results depend on the processing

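The number of the 10 members called moved as follows. In DKO against Control (1 called) it was 2 with the dimmest 40% of genes left out and 2 with array weights. In DKO against HRas-KO (2) it was 1 with only the groups compared, 0 with the muscle and brown fat lists as covariates, 1 with the small RNA genes as a covariate and 1 with DKO replicates 1 and 3 left out. In DKO against NRas-KO (3) it was 1 with only the groups compared, and 2 with a second quantile normalization, median centring, the replicate block, code start as a random block or the small RNA covariate. In DKO+NAC against DKO (1) it was 0 with array weights, only the groups compared, the replicate block, the muscle and fat covariates, the small RNA covariate, or DKO replicates 1 and 3 left out. In HRas-KO+NAC against HRas-KO (2) it was 1 with only the groups compared and 1 with the muscle and fat covariates. In NRas-KO+NAC against NRas-KO (2) it was 1 with all rows tested, arrays centred on their median, trended and robust moderation, the replicate block, code start as a random block or the small RNA covariate, and 0 with only the groups compared. Opa1 newly passed there after a second quantile normalization (adjusted p = 0.0469 by limma). In Control+NAC against Control (2) Mfn1 newly passed with array weights (0.0461) and Opa1 with the replicate block (0.0439). For the NAC change of the DKO effect (1) the number called was 0 with only the groups compared. Fits on only the groups compared have fewer arrays, and the cause of the other moves was not tested.

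Leaving out each array in turn gave 1 to 2 calls in DKO against Control, 1 to 2 against HRas-KO and 1 to 3 against NRas-KO. The ranges with NAC were 0 to 1 (DKO), 1 to 2 (HRas-KO), 0 to 2 (NRas-KO), 1 to 4 (Control) and 0 to 1 for the change of the DKO effect. Comparisons with 0 calls stayed at 0. Among 28 member differences under 584 settings, 514 kept direction and side of the threshold, 60 fell short of it, 10 newly passed and 0 reversed. The replicate block, in which numbers do not pair the animals, gave adjusted p = 0.0558 for Tfam in DKO+NAC against DKO, 0.0659 for Mfn1 in NRas-KO+NAC against NRas-KO, 0.0891 for Dnm1l in DKO against NRas-KO and 0.0439 for Opa1 in Control+NAC against Control.

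Other scalings moved the split of higher and lower calls over all genes: 458 higher and 383 lower in DKO against Control and 555 and 474 against NRas-KO after a second quantile normalization (550 and 300, 710 and 388 as reported), and 909 and 1656 in DKO+NAC against DKO and 23 and 146 for the change with median-centred arrays (1273 and 1433, 26 and 60 as reported). After the second quantile normalization the split was 623 and 604 in DKO against HRas-KO (733 and 515 as reported) and turned to 767 and 707 in NRas-KO+NAC against NRas-KO (635 and 790). With 3 to 5 arrays a group, differences within the given intervals could not be resolved.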
